A study of Mus musculus with 24 samples.

Results

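The genes described here code for 5 lectin-type receptors first known from natural killer (NK) cells, Klrc1, Klrd1, Klrk1, Klrg1 and Klrb1c, measured in mouse CD4+ T cells grown under Th1 conditions. They were chosen by name as a family, with the fall of Klrc1 under I-BET-762 already known, and every probe set with a member as its single gene symbol was read. Of 45101 probe sets on the array, 5 met this rule, and they covered 4 of the 5 genes. Klrc1 had 2 probe sets, and Klrd1, Klrk1 and Klrg1 had 1 each. The probe set for Klrb1c also carries the symbol Klrb1b, so no value is given for Klrb1c. The 4 measured genes stand among 18193 genes with a probe set of their own.

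The cells came from C57BL/6 mice with the 2D2 T cell receptor transgene, which all 8 groups share. They were primed with anti-CD3 and anti-CD28 antibodies fixed to plates, left the plates at 48 h and grew for 2 more days. Activated cells were then stimulated again with both antibodies for 4 h, and resting cells were not. In each state the cells had been grown with 0.5 µM I-BET-762, with 0.25 µM I-BET-762, with the compound Control-768 or with the solvent DMSO, which gave 8 groups of 3 arrays. I-BET-762 blocks the bromodomains by which BET proteins hold on to acetylated histones. The concentration of Control-768, and whether a compound was present during restimulation, are not given in the sources used here. The design text calls the arrays of a group biological replicates, but does not say whether each came from a separate mouse, so p-values measure the spread between these samples.

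Lectin-type receptors of this family sit on NK cells and on some T cells, where they raise or lower the response to a target cell. The CD94 protein, from Klrd1, pairs with NKG2A, from Klrc1, into an inhibitory receptor for the MHC class Ib molecule Qa-1. NKG2D, from Klrk1, is an activating receptor for stress-induced ligands and signals through the adaptor DAP10, while KLRG1 is an inhibitory receptor for cadherins and NK1.1, from Klrb1c, is an activating receptor used to identify NK cells in this strain.

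All 5 genes lie on chromosome 6. Counted in gene order in the RefSeq gene table (GRCm38.p6), with Klrc1 at 0, Klrk1 stands at -3, Klrd1 at -4, Klrb1c at -40 and Klrg1 at -276. The start regions of Klrc1 and Klrk1, whose values were both lower with 0.5 µM I-BET-762, are shown from RefSeq (GRCm38.p6, minus strand), from 250 bases before to 50 bases after the start of the gene. They lie at chr6:129678924-129679223 for Klrc1 and chr6:129623815-129624114 for Klrk1. Capitals mark matches, on either strand, to the RUNX letters TGTGGT and the AP-1 letters TGANTCA.
Klrc1: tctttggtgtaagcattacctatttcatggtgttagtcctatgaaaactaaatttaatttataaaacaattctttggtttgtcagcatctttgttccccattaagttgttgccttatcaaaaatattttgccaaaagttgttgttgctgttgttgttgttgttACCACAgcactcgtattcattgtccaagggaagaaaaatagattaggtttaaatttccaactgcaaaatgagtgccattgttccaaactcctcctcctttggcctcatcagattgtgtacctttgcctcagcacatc
Klrk1: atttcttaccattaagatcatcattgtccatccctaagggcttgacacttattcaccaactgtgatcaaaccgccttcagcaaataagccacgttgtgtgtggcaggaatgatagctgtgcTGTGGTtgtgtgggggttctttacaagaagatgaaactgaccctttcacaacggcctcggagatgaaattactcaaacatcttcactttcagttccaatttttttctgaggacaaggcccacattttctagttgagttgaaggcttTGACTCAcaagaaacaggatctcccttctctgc
Each sequence held 1 RUNX match, which begins at base -87 from the start in Klrc1, on the opposite strand, and at base -129 in Klrk1. Klrk1 also held 1 AP-1 match, at base 18 after the start, and Klrc1 held 0. Among 32851 promoters of the same length, 16.8% held the RUNX letters and 7.8% the AP-1 letters. Both sequences held 1 match to the E-box letters CANNTG, found in 72.3% of all promoters. Neither held the T-box letters GGTGTG, the GATA letters AGATAA or the ETS letters CCGGAA. These matches describe the letters of these windows only, since no binding was measured.

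Values are array intensities on a linear scale, and differences are on the scale of log2(intensity + 16) with their standard error (SE) from limma. The added constant makes the differences of faint genes smaller. A gene is called dim here where no group mean reached an intensity of 64. Klrc1, Klrd1 and Klrk1 were not dim, and Klrg1 was. Adjusted p-values come from limma with Benjamini-Hochberg adjustment over all 18193 genes, two-sided, with a threshold of 0.05.

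T cell genes and the labelled state were visible on the arrays. All 8 measured genes listed for CD4+ T cell identity were above the dim limit, with a summed intensity of 28525 to 39313 over the 24 arrays. Most of this sum came from genes that CD8 T cells share, such as Thy1, with group means of 8179 to 9289. Cd4 itself had group means of 478 to 953 and Zbtb7b of 162 to 361, against 445 to 669 for Cd8b1. All 8 measured NK cell markers and all 5 B cell markers were dim, and the highest group mean of any NK marker was 63.6. Of the myeloid markers 6 of 7 were dim, and of the markers of NKT and gamma delta T cells 1 of 3. The CD8 markers Cd8a and Cd8b1 were above the dim limit, with highest group means of 99.4 and 669. Under Control-768, activated cells had more mRNA than resting cells for Ifng (log2 difference 4.19 ± 0.41, adjusted p = 2.04e-06), Tbx21 (1.64 ± 0.14, adjusted p = 2.72e-07) and Hexim1 (0.74 ± 0.19, adjusted p = 0.00893). The call for Hexim1 was lost in 2 alternatives, with an adjusted p of up to 0.115. The first left out array 3 of resting Control-768 cells. The second left out probe sets ending in _s_at, _x_at or _a_at wherever a gene had another, so the call also depends on the probe sets chosen. For 0.5 µM I-BET-762 against Control-768 in resting cells, Hexim1 differed by 0.61 ± 0.19 (adjusted p = 0.152) and Brd2, which codes for a BET protein, by 0.13 ± 0.16 (adjusted p = 0.871). The arrays numbered 3 lay apart from the others of their groups, with a standard deviation over genes of 0.23 to 0.34 from the group mean, against 0.17 to 0.24 for arrays 1 and 2.

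Klrc1, the inhibitory partner of CD94, had the clearest pattern of the family. It was high in activated control cells and low in all resting groups and in activated cells grown with I-BET-762. In activated cells the 3 arrays read 144, 105 and 67.2 with DMSO and 160, 155 and 88.2 with Control-768. They read 33.5, 24.7 and 41.0 with 0.25 µM and 10.8, 12.6 and 6.78 with 0.5 µM I-BET-762. The compound groups were stepwise apart in activated cells: every array at 0.5 µM lay under every array at 0.25 µM, and every array at 0.25 µM lay under every control array.

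In resting cells Klrc1 read 11.3, 20.7 and 22.7 with DMSO and 14.5, 20.2 and 32.8 with Control-768. It read 12.6, 10.5 and 31.3 with 0.25 µM and 7.54, 4.8 and 8.39 with 0.5 µM I-BET-762. All arrays at 0.5 µM lay below all control arrays, while those at 0.25 µM overlapped both controls. These resting values are near the faint end of the array, where 28.8% to 30.8% of probe sets read under 16.

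**Figure D1:**
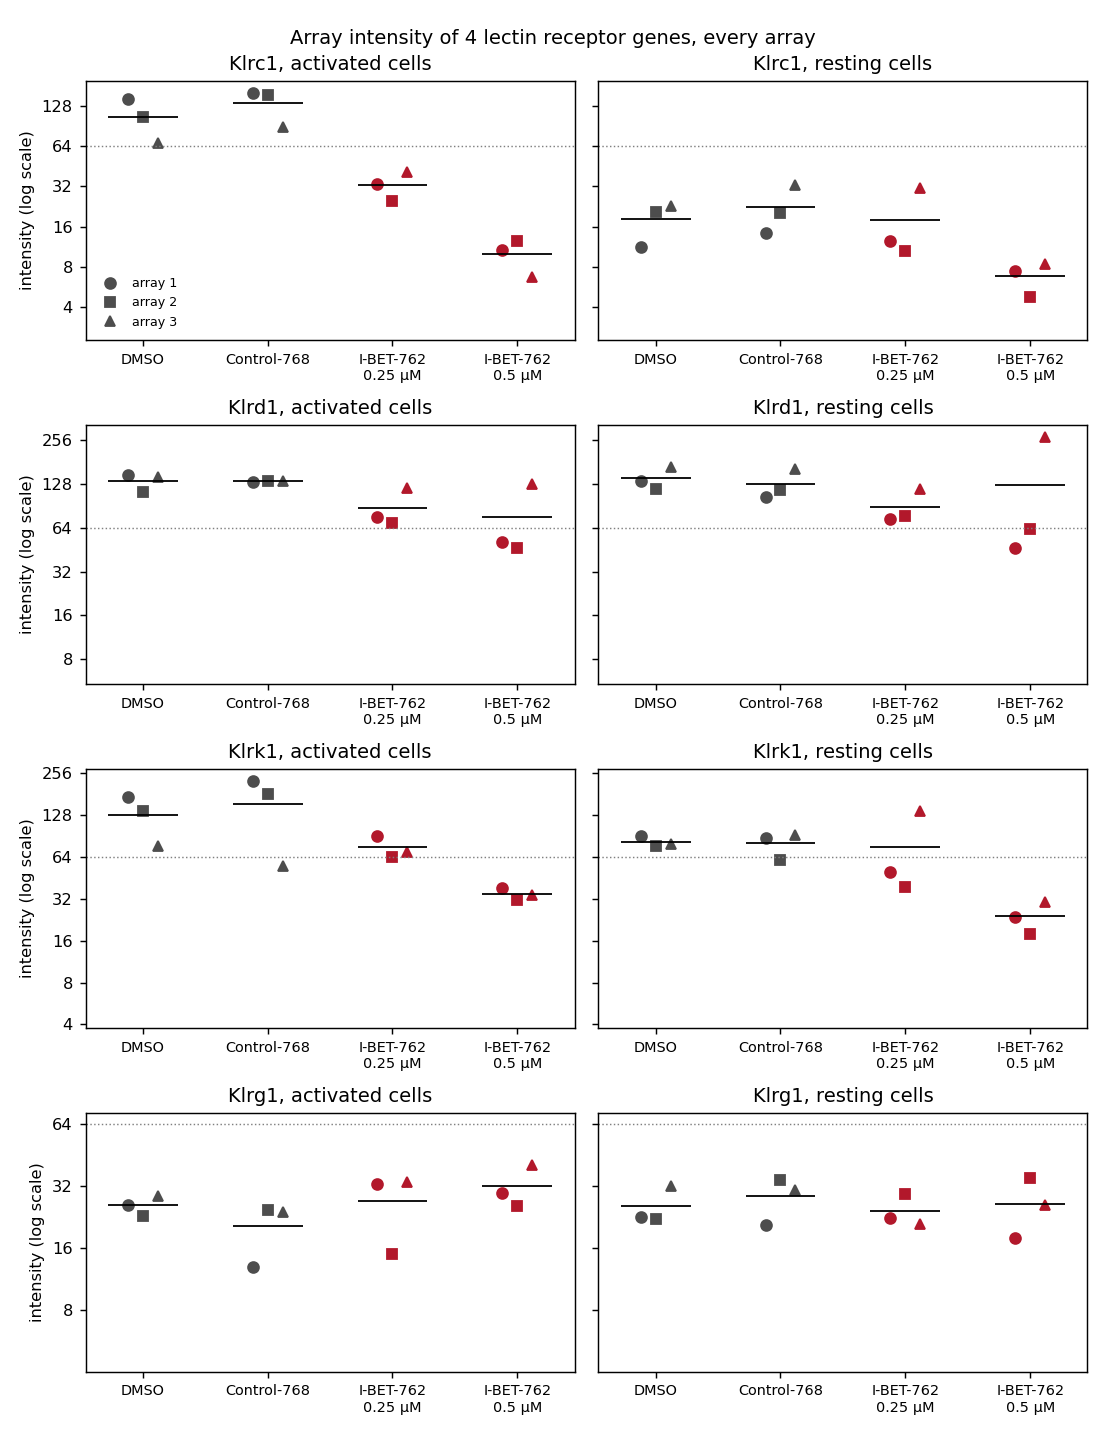
Intensity (log axis) of Klrc1, Klrd1, Klrk1 and Klrg1 on each of the 24 arrays, activated cells on the left and resting cells on the right, with 1 symbol for each array number and a bar at the mean of 3 arrays. The dotted line marks an intensity of 64; Klrc1 lay above it only on activated DMSO and Control-768 arrays, and Klrg1 lay below it on all arrays.

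Set in order, the group means of Klrc1 were 134 ± 40.0 in activated Control-768 cells and 105 ± 38.4 in activated DMSO cells (SD, n = 3 here and below). They were 33.1 ± 8.15 in activated cells at 0.25 µM, 22.5 ± 9.34 in resting Control-768 cells, 18.2 ± 6.07 in resting DMSO cells and 18.1 ± 11.5 in resting cells at 0.25 µM. The lowest were 10 ± 2.96 in activated and 6.91 ± 1.88 in resting cells at 0.5 µM. The single gap in this order without overlap between neighbouring groups was the one between activated DMSO cells and activated cells at 0.25 µM.

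The contrast with I-BET-762 chose Klrc1, so its size is a description and carries no test. In activated cells the log2 difference from Control-768 was -2.50 ± 0.26 at 0.5 µM and -1.59 ± 0.26 at 0.25 µM. By mean intensity, the cells at 0.5 µM had 7.47% and those at 0.25 µM 24.6% of the Control-768 level. Set against DMSO, which shares the I-BET-762 arrays, the differences were -2.18 and -1.27. In resting cells they were smaller, -0.72 ± 0.26 at 0.5 µM and -0.20 ± 0.26 at 0.25 µM against Control-768. Of all genes, 0.748% passed the threshold in activated cells at 0.5 µM and 0.0715% at 0.25 µM. In resting cells 1.39% of genes passed at 0.5 µM and 0.066% at 0.25 µM. No count of members is set beside these shares, since the rule used these contrasts. The numbers of the arrays were taken to pair them within a state. With the replicate number as a block, 613 rather than 136 genes passed the threshold in activated cells at 0.5 µM. The difference of Klrc1 was again -2.50. The matching counts in resting cells were 1007 and 252.

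**Figure D2:**
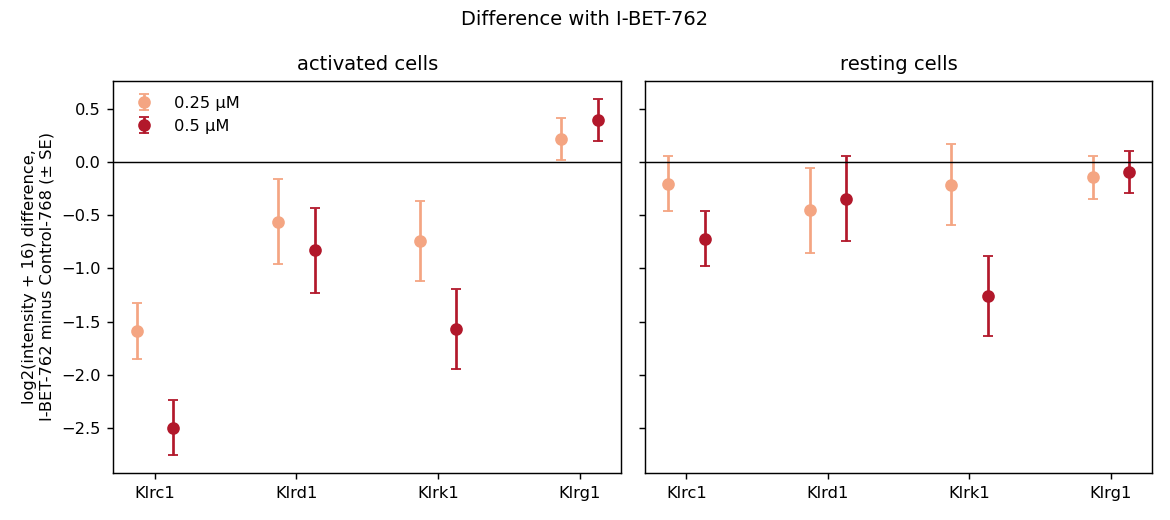
Log2(intensity + 16) difference of I-BET-762 minus Control-768, with SE, for 4 genes in activated (left) and resting (right) cells, at 0.25 µM (light) and 0.5 µM (dark). Klrc1 in activated cells has the lowest values, -1.59 and -2.50, and Klrk1 is lower at 0.5 µM in both states.

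The second probe set of Klrc1 did not show this pattern. It read between 2.43 and 13.4 over the 24 arrays, dim in every group, and its difference between 0.5 µM I-BET-762 and Control-768 in activated cells was -0.19 ± 0.15. The values of Klrc1 therefore rest on 1 probe set. The closely related genes Klrc2, Klrc3 and Klre1 were dim too, with highest group means of 6.15, 7.78 and 26.2. Klre1 averaged 24.1 with Control-768, 13.2 at 0.25 µM and 9.93 at 0.5 µM I-BET-762 in activated cells. In resting cells these means were 20.4, 11.8 and 6.89, the same order as for Klrc1. Klrc2 and Klrc3 did not show this order.

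Klrc1 rose on restimulation of control cells. Activated Control-768 cells exceeded resting Control-768 cells by 1.95 ± 0.26 (adjusted p = 4.37e-05), and activated DMSO cells exceeded resting DMSO cells by 1.79 ± 0.26 (adjusted p = 9.49e-05). Neither pair of groups overlapped. Over the alternatives run, the adjusted p ran from 9.98e-06 to 0.00545 with Control-768 and from 1.84e-05 to 0.00666 with DMSO. Of all genes, 20.1% passed the threshold with Control-768 and 20.9% with DMSO, and 1 of 4 members did in each, so the members' share was close to the background. These control arrays also entered the contrasts that chose Klrc1.

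In cells grown with I-BET-762 the change of Klrc1 on restimulation did not pass the threshold. It was 0.56 ± 0.26 at 0.25 µM (adjusted p = 0.162) and 0.18 ± 0.26 at 0.5 µM (95% interval -0.36 to 0.72, adjusted p = 0.691). Without the arrays numbered 3 the value at 0.25 µM was 0.71 and passed (adjusted p = 0.0136). Of all genes 14.5% passed in cells at 0.25 µM and 23.3% at 0.5 µM, against 0 of 4 members in each. At 0.5 µM the Klrc1 means, 10 in activated and 6.91 in resting cells, were below the added constant, which makes their difference smaller. By mean intensity the activated group had 145% of the resting level, with overlap, and the log2 difference ran from 0.06 to 0.47 over the alternatives. The missing call at 0.5 µM therefore cannot tell an absent change from a faint one. These I-BET-762 arrays also entered the contrasts that chose Klrc1.

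The difference between compounds in that change was itself fitted. For Klrc1 the change on restimulation at 0.5 µM was lower than with Control-768 by a log2 difference of -1.77 ± 0.36. Without the arrays numbered 3 it was -2.06, and over all alternatives it ran from -2.08 to -1.12. At 0.25 µM it was -1.39 ± 0.36. In the limma fit 0 of 18193 genes (0%) passed at either concentration, although 652 genes at 0.5 µM and 427 at 0.25 µM had an unadjusted p under 0.05. Without the arrays numbered 3, 3 of 18193 genes passed in limma at 0.5 µM and 0 at 0.25 µM. This comparison contains the contrast that chose Klrc1 and is not independent of it, so the values of Klrc1 are a description and carry no test.

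**Figure D3:**
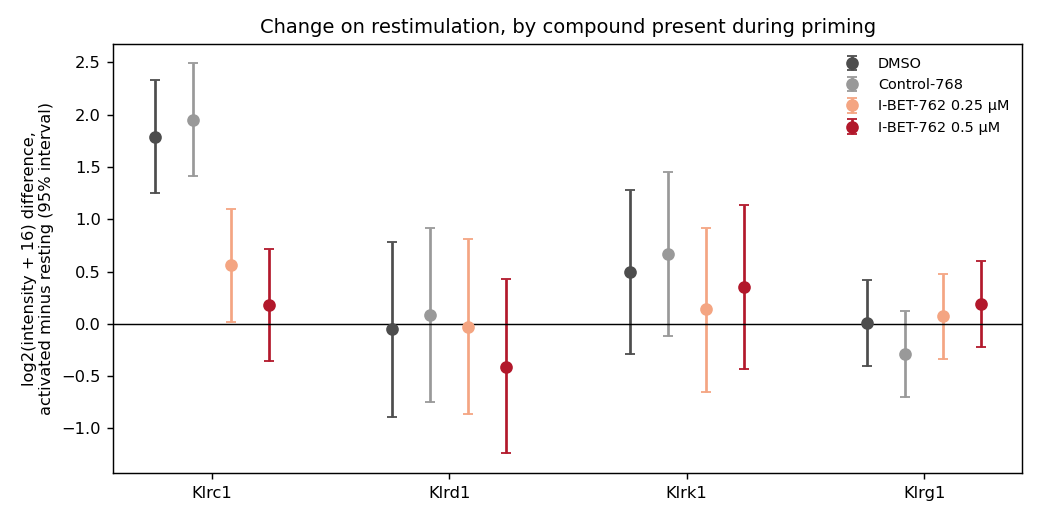
Log2(intensity + 16) difference of activated minus resting cells, with the 95% interval, for each gene and compound. The intervals of Klrc1 lie above 1 with DMSO and Control-768, from 0.02 to 1.10 at 0.25 µM and across 0 at 0.5 µM, and those of the other genes cross 0.

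Klrd1, which codes for CD94, the common partner of the inhibitory receptor, was at a similar level in activated and resting control cells. In activated cells its arrays read 147, 112 and 142 with DMSO and 132, 135 and 134 with Control-768. They read 76.1, 68.7 and 119 with 0.25 µM and 51.0, 46.3 and 129 with 0.5 µM I-BET-762. Arrays 1 and 2 were clearly lower with I-BET-762, and array 3 at both concentrations was close to the controls, so that all Control-768 arrays were higher but DMSO overlapped.

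In resting cells Klrd1 read 134, 118 and 169 with DMSO and 104, 117 and 163 with Control-768. It read 73.5, 77.6 and 117 with 0.25 µM and 46.1, 63.1 and 271 with 0.5 µM I-BET-762. At 0.5 µM the group held the lowest and the highest reading of Klrd1 on any array. The differences from Control-768 at 0.5 µM were -0.83 ± 0.40 in activated and -0.34 ± 0.40 in resting cells.

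These averages moved with array number 3. Set number against number, the activated arrays at 0.5 µM differed from Control-768 by -1.15, -1.28 and -0.05, and the resting arrays by -0.94, -0.75 and 0.68. Without the arrays numbered 3 the differences were -1.21 in activated and -0.85 in resting cells. The resting 0.5 µM array with the reading of 271 had a summed NK marker intensity of 174, within the 159 to 238 of its group, and a CD8 sum of 566, within 527 to 600. Its sum of CD4+ T cell identity genes, 39313, was the highest of all arrays, and its deviation from the group mean over all genes was 0.33. The part of these features in the reading was not tested.

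Restimulation left Klrd1 without a call under any compound. The activated minus resting difference was -0.05 ± 0.40 with DMSO (95% interval -0.89 to 0.78) and 0.08 ± 0.40 with Control-768 (-0.75 to 0.92). It was -0.03 ± 0.40 at 0.25 µM and -0.41 ± 0.40 at 0.5 µM (-1.24 to 0.43). The intervals allow changes of up to about 1 on the log2 scale either way, but their SE is shared by all 8 groups. Without the arrays numbered 3 the SE was 0.14. The differences were then 0.03 with DMSO, 0.25 with Control-768, -0.05 at 0.25 µM and -0.12 at 0.5 µM.

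Klrk1, which codes for the activating receptor NKG2D, was low with 0.5 µM I-BET-762 in both states. In activated cells its arrays read 173, 137 and 76.4 with DMSO and 228, 183 and 55.1 with Control-768. They read 91.1, 64.6 and 69.8 with 0.25 µM and 38.5, 31.5 and 34.3 with 0.5 µM I-BET-762. All arrays at 0.5 µM lay below all control arrays, and those at 0.25 µM overlapped both control groups, whose array 3 was their lowest.

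In resting cells Klrk1 read 90.4, 76.5 and 79.7 with DMSO and 87.8, 61.2 and 91.6 with Control-768. It read 49.9, 38.9 and 138 with 0.25 µM and 23.9, 17.8 and 30.3 with 0.5 µM I-BET-762. The 3 arrays at 0.5 µM were again below every control array, and array 3 at 0.25 µM was above them all. Against Control-768 the differences at 0.5 µM were -1.57 ± 0.38 in activated and -1.26 ± 0.38 in resting cells, and those at 0.25 µM were -0.74 and -0.21. Number against number, the activated arrays at 0.5 µM differed by -2.16, -2.06 and -0.50 and the resting arrays by -1.38, -1.19 and -1.22, so the resting difference was alike on all 3 arrays. As for Klrc1, these differences describe the contrast by which the family was picked and carry no test.

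In order of level, Klrk1 averaged 155 ± 89.4 in activated Control-768 cells and 129 ± 48.7 in activated DMSO cells. It averaged 82.2 ± 7.29 in resting DMSO cells, 80.2 ± 16.6 in resting Control-768 cells, 75.4 ± 54.1 in resting and 75.2 ± 14.0 in activated cells at 0.25 µM. The last were 34.8 ± 3.55 in activated and 24.0 ± 6.25 in resting cells at 0.5 µM. The ranges of neighbours overlapped down to the activated group at 0.25 µM, which lay wholly above the activated group at 0.5 µM, and the last 2 groups did not overlap either.

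Restimulation gave Klrk1 a positive difference that did not pass the threshold, 0.67 ± 0.38 with Control-768 (adjusted p = 0.247) and 0.50 ± 0.38 with DMSO (adjusted p = 0.405). The array numbered 3 of activated Control-768 cells, at 55.1, stood far below the other 2. Without that array the difference with Control-768 was 1.21 (adjusted p = 0.0193). Without all arrays numbered 3 it was 1.30 with Control-768 (adjusted p = 6.29e-04), 0.77 with DMSO (adjusted p = 0.0127) and 0.63 at 0.25 µM (adjusted p = 0.0438). With all arrays it was 0.14 ± 0.38 at 0.25 µM (adjusted p = 0.87) and 0.35 ± 0.38 at 0.5 µM (adjusted p = 0.575). The change on restimulation at 0.5 µM less that with Control-768 was -0.31 ± 0.53, given without a test as for Klrc1.

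Klrg1, an inhibitory receptor of late effector cells, was dim. Its readings ran from 13.0 to 40.8 over the 24 arrays and its group means from 20.6 to 32.1. The largest difference from Control-768 was 0.40 ± 0.20 in activated cells at 0.5 µM, where the arrays read 29.8, 25.6 and 40.8, against 13.0, 24.6 and 24.1 with Control-768. These groups did not overlap, but the lowest array at 0.5 µM was only slightly above the highest of Control-768, and DMSO overlapped. None of its 4 changes on restimulation passed the threshold, and they lay between -0.29 and 0.19.

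The concentration step and the control compound gave no call for any member. Between 0.5 and 0.25 µM Klrc1 differed by -0.91 ± 0.26 in activated cells (adjusted p = 0.79) and by -0.53 ± 0.26 in resting cells (adjusted p = 0.703). Klrk1 differed by -0.84 ± 0.38 in activated cells (adjusted p = 1) and by -1.05 ± 0.38 in resting cells (adjusted p = 0.595). The I-BET-762 arrays of this step also entered the contrasts that chose Klrc1, so the step is not independent of that choice. Of all genes 0.011% passed in activated and 0.066% in resting cells. With the replicate number as a block these were 36 genes rather than 2 and 211 rather than 12, and the smallest adjusted p of a member was 0.109, for Klrk1 in resting cells. Between Control-768 and DMSO the members differed by -0.21 to 0.32 (adjusted p = 1 each), with 0 of 18193 genes (0%) past the threshold in limma in either state and 297 genes in activated and 429 in resting cells at an unadjusted p under 0.05.

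Markers of other cells were set beside these values, since in RNA from whole cultures fewer cells of a type and less RNA per cell cannot be told apart. In activated cells the summed intensity of the 8 NK markers was 110 to 194 at 0.5 µM and 148 to 214 with Control-768. In resting cells it was 159 to 238 at 0.5 µM and 173 to 222 with Control-768. The groups overlapped and all 8 markers were dim, none of them at 0. The sum of Cd8a and Cd8b1 was 530 to 957 in activated cells at 0.5 µM and 613 to 907 in activated Control-768 cells, which overlap. It was 613 to 907 in activated and 412 to 594 in resting Control-768 cells, and 653 to 861 in activated and 479 to 601 in resting DMSO cells, without overlap in either. At 0.25 µM it was 615 to 942 in activated and 458 to 632 in resting cells, and at 0.5 µM 530 to 957 in activated and 527 to 600 in resting cells, with overlap in both. The median difference of the 2 CD8 genes on restimulation was 0.21 with DMSO, 0.42 with Control-768, 0.39 at 0.25 µM and 0.31 at 0.5 µM, and neither gene passed the threshold. The part of CD8 T cells in the change of Klrc1 was not tested.

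Of the other receptors of the NK gene complex few were above the dim limit. Of 35 listed genes 24 were measured and 5 were not dim. Under Control-768, activated against resting cells, 1 rose and 1 fell, where 20.1% of all genes passed the threshold. The median difference was 0.04 over the list and -0.03 over all genes. Cd69, an early activation marker, rose by 1.39 ± 0.24 (adjusted p = 4.12e-04). Klrb1f, a lectin-type receptor gene of the Klrb1 cluster, fell by 2.14 on the log2 scale (SE 0.40, adjusted p = 8.59e-04). Its arrays read 38.7, 36.9 and 33.5 in activated and 221, 134 and 325 in resting Control-768 cells, so every activated array was below every resting array, the opposite of Klrc1. With 0.5 µM I-BET-762 against Control-768, 0 of the 24 passed in either state in the unpaired fit. Medians were -0.04 in both states and 0.00 over all genes in activated cells. Klrb1f in resting cells was at -1.59 ± 0.40 (adjusted p = 0.0522), with readings of 37.4, 32.3 and 157 at 0.5 µM.

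Genes placed between Klrb1c and Klrc1 gave the local setting. Of the 39 genes there, Klrk1 and Klrd1 included, 24 code for proteins. With these members set aside, 21 genes were measured and 9 were not dim. Under Control-768, activated against resting cells, Cd69 rose and Klrb1f and BC064078 fell, with a median of 0.03 over the 21. With 0.5 µM I-BET-762, 0 passed in activated cells (median -0.05), and 1 fell in resting cells, BC035044, with group means of 62.4 at 0.5 µM and 229 with Control-768. Among the genes without a call, group means went either way. Clec2i averaged 507 with Control-768 and 194 at 0.5 µM in activated cells, and 903 and 351 in resting cells. Clec2d averaged 2270 with Control-768 and 2782 at 0.5 µM in activated cells, and 1659 and 2538 in resting cells. BC064078, BC035044, Clec2i and Clec2d were named after their values were seen.

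The ligands of the receptors were measured for 11 of 19 listed genes, of which 5 were not dim. None passed the threshold on restimulation under Control-768 or with 0.5 µM I-BET-762 in either state, and their medians were 0.00 on restimulation, 0.08 with I-BET-762 in activated cells and 0.04 in resting cells. Ulbp1, which codes for a ligand of NKG2D, was dim, with a highest group mean of 50.2, and so was H60c, at 10.2. Both were named for their role after the values were seen.

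Adaptors and signalling proteins downstream of the receptors were mostly above the dim limit, 18 of 22 measured of 24 listed. Under Control-768, activated against resting cells, 4 rose and 2 fell (median 0.07), where 20.1% of all genes passed the threshold. The guanine exchange factor gene Vav2 rose by 0.99 ± 0.18 (adjusted p = 7.31e-04) and the adaptor gene Lcp2 by 0.76 ± 0.15 (adjusted p = 0.00141). Plcg1, coding for a phospholipase, had a difference of -1.39 ± 0.16 (adjusted p = 1.00e-05), and Ptpn6, coding for the phosphatase SHP-1 that inhibitory receptors recruit, one of -0.72 ± 0.14 (adjusted p = 0.00106). Hcst, which codes for DAP10, was named for its role after its values were seen. It did not differ past the threshold at 0.5 µM in activated cells (0.20 ± 0.24, adjusted p = 0.939) or resting cells (0.07 ± 0.24, adjusted p = 0.971).

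With 0.5 µM I-BET-762 in resting cells 1 of the 22 rose, where 1.39% of all genes passed, and in activated cells 0 did. Cd247, coding for the CD3 zeta chain, read 5282, 4844 and 6477 at 0.5 µM and 4074, 3986 and 4210 with Control-768, without overlap. The difference was 0.42 ± 0.10 (adjusted p = 0.0474), and 9 alternatives ended the call, with adjusted p up to 0.485. Among them were the fits without each Control-768 array in turn and without array 1 or array 3 at 0.5 µM.

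Of the transcription factors and cytokine receptors of NK-type and effector programmes, 26 of 28 were measured and 25 were not dim. On restimulation under Control-768, 8 rose and 2 fell (median 0.14), where 20.1% of all genes passed the threshold. The repressor gene Zeb2 rose by 4.03 ± 0.35 (adjusted p = 5.04e-07), Stat5a, a transducer of cytokine signals, by 2.88 ± 0.25 (adjusted p = 5.56e-07), and the T-box genes Eomes and Tbx21 by 1.92 ± 0.34 (adjusted p = 5.32e-04) and 1.64 ± 0.14 (adjusted p = 2.72e-07).

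With 0.5 µM I-BET-762 in resting cells 1 of these 26 rose and 1 fell (median 0.17), where 1.39% of all genes passed the threshold. In activated cells 0 rose and 1 fell (median 0.09), where 0.748% of all genes passed. Tbx21, coding for the Th1 factor T-bet, read 2188, 2026 and 2638 in resting cells at 0.5 µM and 1041, 1099 and 1321 with Control-768. All arrays at 0.5 µM were higher, with a difference of 0.97 ± 0.14 (adjusted p = 3.33e-04, 0.097 in a fit of the compared groups alone). In activated cells Tbx21 was at 0.24 ± 0.14 (adjusted p = 0.74).

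Maf, coding for the factor c-Maf, was lower at 0.5 µM in both states. In activated cells it read 716, 609 and 520 at 0.5 µM and 3856, 4082 and 4136 with Control-768, a difference of -2.69 ± 0.38 (adjusted p = 5.68e-04). In resting cells it read 719, 503 and 1990 at 0.5 µM and 3083, 2787 and 5519 with Control-768, with a difference of -1.99 ± 0.38 (adjusted p = 0.00714, 0.324 in a fit of the compared groups alone). Neither pair of groups overlapped, and array 3 was the highest of both resting groups. Eomes, which drives NK-type programmes, differed by -1.36 ± 0.34 in activated cells, short of the threshold in the unpaired fit (adjusted p = 0.0723). Its arrays read 97.9, 71.5 and 75.6 at 0.5 µM and 222, 171 and 334 with Control-768.

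The genes with the pattern most like that of Klrc1 over the 8 group means were sought among 2587 genes that were not dim and spanned at least 1 on the log2 scale. They were Ebf1 (r = 0.980), Stra6 (r = 0.968), Wnt10b (r = 0.966), Ninj1 (r = 0.952) and Itga3 (r = 0.952), with Pearson's r over 8 groups given as a description. Ebf1 codes for a transcription factor of B cell development, Stra6 for a retinol transporter, Wnt10b for a secreted signal, Ninj1 for a membrane protein of cell rupture and Itga3 for an integrin chain. Ebf1 had group means of 7.05 at 0.5 µM and 67.5 with Control-768 in activated cells, and Itga3 had 56.9 and 515. Ebf1 passed the dim limit only in activated Control-768 cells, where Klrc1 was highest too, so its place rests partly on the filter. It averaged 57.7 in activated DMSO cells and at most 15.3 in resting groups. The groups share their arrays and their states, and 8 points carry little information on likeness.

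Klrk1 was most like Jcad (r = 0.987), Ube2e3 (r = 0.987) and Tle1 (r = 0.976). Jcad codes for a junction protein, Ube2e3 for a ubiquitin-conjugating enzyme and Tle1 for a transcriptional corepressor. Jcad had group means of 163 at 0.5 µM and 618 with Control-768 in activated cells, and 104 and 429 in resting cells. Klrc1 and Klrk1 were alike at r = 0.870. Klrd1 and Klrg1 spanned 0.87 and 0.40 on the log2 scale, under the limit of 1, so no like genes were sought for them.

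**Figure D4:**
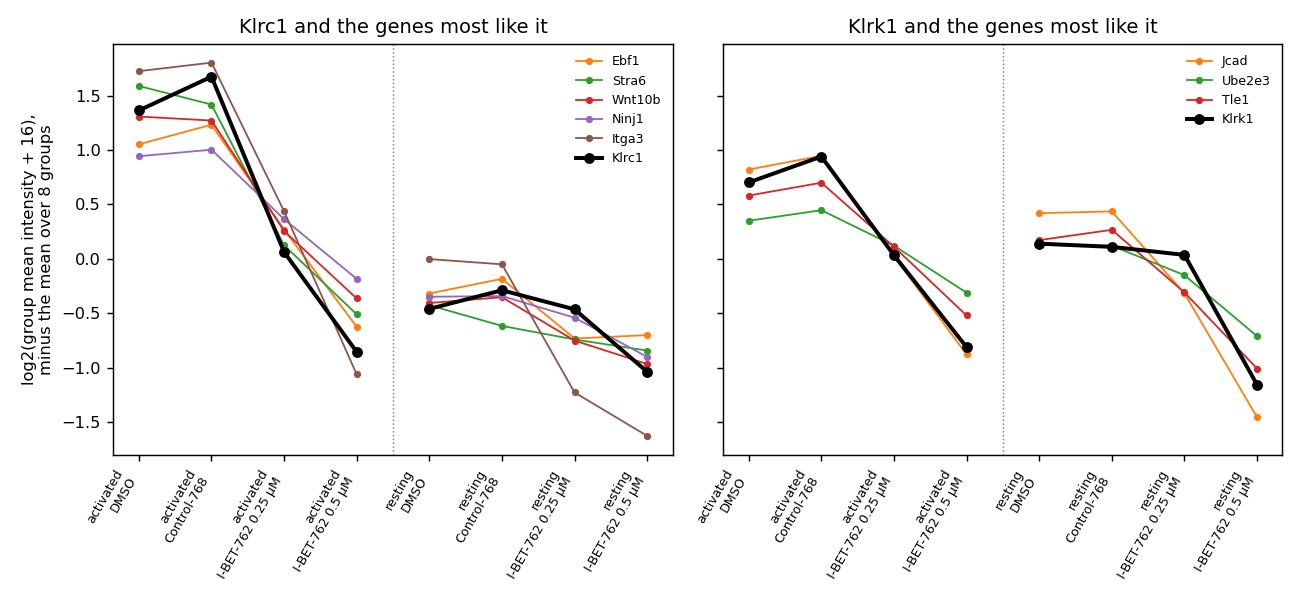
Log2(group mean intensity + 16), less the mean over the 8 groups, for Klrc1 with 5 like genes (left) and Klrk1 with 3 (right), activated groups left of resting groups. Klrc1 is high only in activated DMSO and Control-768 cells, while Klrk1 is lowest at 0.5 µM in both states.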

How the data were processed

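RNA of 24 samples was hybridised to an Affymetrix mouse array. The authors deposited linear intensities, 1 for each of 45101 probe sets. Their summary and normalization method was not given in the sources used here. Per the labels' protocols, RNA was amplified in rounds before biotin labelling, which can add to the spread of faint genes. Array medians lay between 37.4 and 44.4. By the platform annotation 34945 probe sets have 1 symbol, 932 have several and 9160 have none, and 64 are controls, which were not used. Of the single symbols 34741 matched the current gene table and 0 changed.

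Values were taken as log2(intensity + 16), with 1 probe set a gene (highest mean over all arrays), for 18193 genes. All 24 arrays entered 1 limma model (limma 3.58.1, R 4.3.3) of 8 group means with empirical Bayes moderation (16 residual and 3.58 prior degrees of freedom), Benjamini-Hochberg adjustment, two-sided. Tables were handled in Python 3.11.15. The script was tested on simulated data. Precision is limited by having 3 arrays a group, with a median 95% interval of 0.39 to either side for 3 against 3.

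Members and lists were chosen with earlier results of these data known. Named genes are the members, up to 4 genes a context list with the smallest adjusted p past the threshold (0.5 µM I-BET-762 against Control-768, activated against resting under Control-768), Hexim1, Brd2, Ifng and Tbx21, and the 5 or 3 most alike genes; others are marked. Same-numbered arrays deviated together within a state (r from 0.155 to 0.699 for each pair of groups) but not dependably across states (0.031 to 0.155). Numbers were therefore taken to pair arrays within a state. The main fit does not use this pairing, so its SEs, calls and missing calls within a state, also for listed genes, are those of unpaired arrays. In activated cells, array 1 at 0.5 µM was an exception, with r = 0.163 to DMSO array 1 and 0.179 to a DMSO array of another number. Alternatives changed the constant (1 or 64), the filter, the normalization, the probe sets, the spread, the replicate block and the arrays used.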

Additional observations from a re-analysis of the deposited data

How the results depend on the processing

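The constant added before the logarithm moved the size of the Klrc1 differences from Control-768 and not their direction. With a constant of 1 they were -3.61 and -1.97 in activated cells at 0.5 and 0.25 µM and -1.53 in resting cells at 0.5 µM, and with a constant of 64 they were -1.40, -1.01 and -0.28. Leaving out arrays gave -2.74 to -2.36 and -1.95 to -1.46 in activated cells at 0.5 and 0.25 µM, and -0.88 to -0.54 and -0.46 to -0.01 in resting cells. The count of members past the threshold on restimulation ran from 1 to 2 with Control-768, from 1 to 2 with DMSO and from 0 to 2 at 0.25 µM when arrays were left out, and stayed 0 at 0.5 µM and in the concentration and Control-768 against DMSO comparisons. The 2 members were Klrc1 and Klrk1, without the arrays numbered 3 or, with Control-768, without array 3 of activated cells alone. Without the arrays numbered 3, Klrk1 at 0.25 µM was 0.63. It turned to -0.02 and -0.15 without array 1 or array 2 of resting cells at 0.25 µM, and neither value passed; the cause was not tested. With the replicate block over both states the Klrc1 change on restimulation was 1.95 with Control-768 (limma adjusted p = 5.21e-05) and 1.79 with DMSO (adjusted p = 1.14e-04), and neither this block nor the block within each state changed a member's call in the comparisons tested. Counts over all genes moved more. At 0.5 µM against Control-768, 136 genes in activated and 252 in resting cells became 34 and 29 in a fit of the compared groups alone, 341 and 573 with the block over both states, 613 and 1007 with the block within states, and 500 and 741 without arrays 3. At 0.25 µM, under the same settings in the same order, 13 and 12 became 2 and 0, 42 and 38, 72 and 97, and 57 and 86. In the concentration step, 2 and 12 became 0 and 0, 16 and 76, 36 and 211, and 0 and 25. When every probe set was fitted, calls on restimulation were counted over 45037 probe sets and no longer over 18193 genes. The 3651 genes with Control-768 became 6674 probe sets, and the 3799 genes with DMSO became 7124 probe sets. The 2635 genes at 0.25 µM became 4723 probe sets, and the 4238 genes at 0.5 µM became 8018. With the compared groups alone, the 4238 genes at 0.5 µM became 1228 genes. Low signal is a further limit: Klrg1, the second Klrc1 probe set and Klrc1 itself at 0.5 µM read near the faint end of the array, so the size of its fall has no firm scale.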
